A study of Mus musculus with 43 samples.

Results

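The DNA replication and mitosis genes are 42 mouse genes, 25 that copy DNA and 17 that divide the copied chromosomes, chosen from a list of symbols and found in the deposited gene tables among 56941 gene identifiers. All 42 were matched, and all 42 passed the filter on low counts in each comparison. Replication starts when the MCM helicase is loaded at origins by Cdc6 and Cdt1, is opened by Mcm10, Cdc45 and the GINS complex, and is followed by polymerases supplied with nucleotides and held by the clamp Pcna. Mitosis is driven by Cdk1 with cyclins A and B, by the Aurora and Polo kinases and by the anaphase-promoting complex, which ends it. Marrow is among the most proliferative tissues of the body, and its dividing cells are mainly erythroid and granulocyte precursors, progenitors and early B cells.

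The study asked how a small JAK2V617F clone relates to the marrow around it. JAK2V617F is an activating kinase mutation found in myeloproliferative neoplasms. Wild-type CD45.1 mice received 5 M (M, 1000000) whole marrow cells of JAK2V617F CD45.2 mice without conditioning, and untransplanted CD45.1 mice, matched for age and sex, were controls. CD45.1 and CD45.2 are alleles of one surface protein that tell host from donor cells.

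Donor cells (CD45.2, JAK2V617F) and host cells (CD45.1, wild type) came from the same 7 mice, 4 male and 3 female, about 7 months after transplantation, and were compared with CD45.1 cells of 8 control mice, 4 male and 4 female. Stroma libraries came from 7 transplanted and 8 control mice, from a gate without CD45 and lineage markers. CD11b+ CD45.1+ myeloid cells came from 3 transplanted and 3 control males after 52 weeks. The age of the mice and the promoter or Cre driver of the JAK2V617F allele are not given in the sources used here. No mice given normal marrow were among the libraries, so the mutation and the transplantation cannot be told apart. The donor library of animal N204 carries the donor label in its title and a recipient label in a characteristic, and it was kept with the donors by its title.

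Library totals were 16.34 to 19.68 M counts in donor, 16.3 to 19.05 M in host and 15.71 to 18.56 M in control CD45.1 libraries. They were 41.21 to 63.97 M in transplanted and 50.73 to 143.23 M in control stroma, and 32.48 to 44.85 M in transplanted and 35.53 to 42.98 M in control CD11b+ libraries. A set of 13 marrow stroma markers summed to 2380 to 11940 CPM in transplanted and 6615 to 16710 CPM in control stroma, against 53.4 to 105.3 CPM over the 22 CD45-sorted libraries. The 4 haematopoietic genes Ptprc, Itgam, Spi1 and Coro1a were still at 105.2 to 947.4 CPM in transplanted and 158.5 to 725.5 CPM in control stroma. CPM here are counts per 1000000 after TMM scaling, done separately for the CD45-sorted, stroma and CD11b+ libraries, and levels of different genes are compared only in TPM, which divides by transcript length.

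The start regions of these genes differ between replication and mitosis. In textbook accounts the E2F factors bind the promoters of replication genes, and the DREAM and MuvB complexes bind the CHR element of mitotic genes, often near CCAAT boxes bound by NF-Y. Promoters of 300 bases (250 before and 50 after the start) from RefSeq on GRCm38.p6 were searched on both strands for the E2F words TTTCCCGC, TTTCGCGC, TTTGCCGC and TTTGGCGC, the CHR words TTTGAA and TTCGAA, and CCAAT. The counts of the series were made on GRCm39, so coordinates below belong to the promoter table alone. Entries were matched for 36 of the 42 genes, and Mcm4, Gins1, Gins2, Pole, Ccna2 and Aurkb had no entry matched. The table holds 32851 entries for 27025 genes, and a gene was counted where any of its entries held the word. Genes with several entries thus had more chances to match. An E2F word was present in 10 of 21 replication genes (47.6%), 1 of 15 mitotic genes (6.67%) and 704 of 27025 genes of the table (2.6%). A CHR word was present in 5 of 21 replication genes (23.8%), 12 of 15 mitotic genes (80%) and 21.7% of all genes of the table. CCAAT was present in 61.9% of replication genes, 93.3% of mitotic genes and 41.1% of all genes of the table. A match is a description of letters, not of a bound site or a cause.

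**Figure D1:**
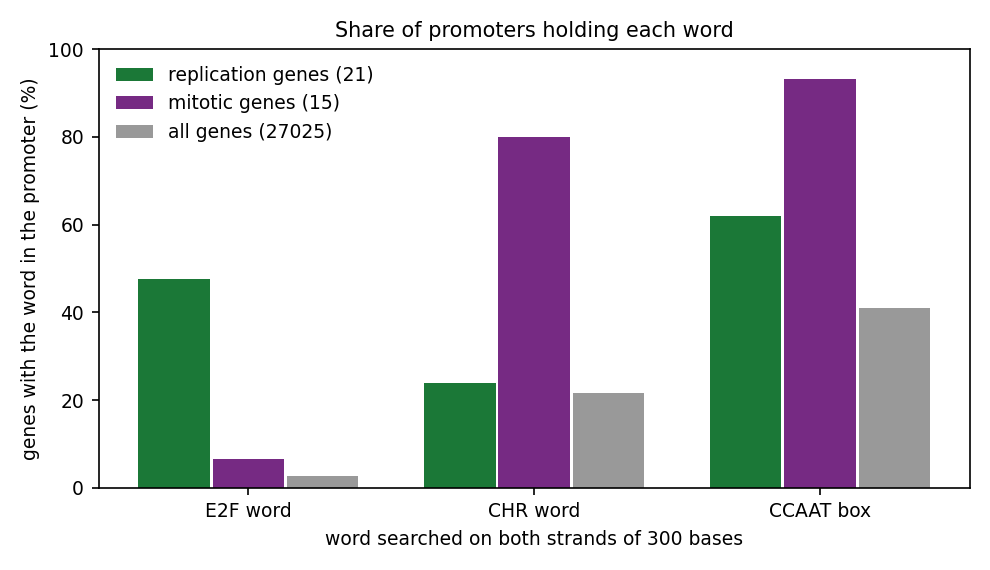
Share of genes (%) with an E2F word, a CHR word or CCAAT in any listed promoter, in 21 replication genes, 15 mitotic genes and 27025 genes of the promoter table. The E2F bar is tallest for replication genes (47.6%) and the CHR bar for mitotic genes (80%).

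For replication, 3 promoters are printed because their genes had the smallest p in donor against control cells among those with an E2F word, which stands in capitals. Mcm5 (a subunit of the MCM helicase ring) lies at chr8:75109259-75109558 on the plus strand and holds a pair of overlapping E2F words on opposite strands, TTTCGCGC from base -153 and TTTGGCGC to base -142 relative to the start. Cdc6 (the ATPase that helps load the helicase) lies at chr11:98907901-98908200 on the plus strand, with 1 word at -138 to -131. Pola1 (the catalytic subunit of the polymerase that primes synthesis) lies at chrX:93632106-93632405 on the minus strand, also with 1 word at -138 to -131.
Mcm5: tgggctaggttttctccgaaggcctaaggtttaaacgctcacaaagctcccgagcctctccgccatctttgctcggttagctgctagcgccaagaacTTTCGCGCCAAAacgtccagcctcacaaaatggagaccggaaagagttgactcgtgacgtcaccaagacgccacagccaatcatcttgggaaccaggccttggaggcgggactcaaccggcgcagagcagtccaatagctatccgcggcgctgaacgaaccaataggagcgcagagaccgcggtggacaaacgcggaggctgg
Cdc6: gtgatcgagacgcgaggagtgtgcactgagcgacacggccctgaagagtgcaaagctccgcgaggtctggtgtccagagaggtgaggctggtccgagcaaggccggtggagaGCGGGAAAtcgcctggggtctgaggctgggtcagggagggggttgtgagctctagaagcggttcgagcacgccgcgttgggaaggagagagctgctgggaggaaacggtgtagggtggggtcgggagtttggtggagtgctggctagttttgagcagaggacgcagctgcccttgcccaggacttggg
Pola1: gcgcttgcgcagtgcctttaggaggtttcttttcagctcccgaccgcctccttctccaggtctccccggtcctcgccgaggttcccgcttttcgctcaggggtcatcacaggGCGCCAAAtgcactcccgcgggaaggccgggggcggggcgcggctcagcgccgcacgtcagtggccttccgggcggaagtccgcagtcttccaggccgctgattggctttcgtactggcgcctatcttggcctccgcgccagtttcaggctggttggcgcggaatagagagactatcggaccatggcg

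For mitosis, 3 promoters are printed by the same rule with a CHR word, and capitals mark both the CHR word and the CCAAT boxes. Aurka (Aurora A, the kinase of spindle poles) lies at chr2:172370521-172370820 on the minus strand, with CCAAT at -51 and -19 and the CHR word at 32 to 37. Bub1 (a kinase of the spindle checkpoint) lies at chr2:127831810-127832109 on the minus strand, with 2 CCAAT boxes and the CHR word TTCGAA at 14 to 19. Ube2c (a ubiquitin-conjugating enzyme that works with the anaphase-promoting complex) lies at chr2:164769679-164769978 on the plus strand, with 6 CCAAT boxes and the CHR word on the minus strand at -29 to -24.
Aurka: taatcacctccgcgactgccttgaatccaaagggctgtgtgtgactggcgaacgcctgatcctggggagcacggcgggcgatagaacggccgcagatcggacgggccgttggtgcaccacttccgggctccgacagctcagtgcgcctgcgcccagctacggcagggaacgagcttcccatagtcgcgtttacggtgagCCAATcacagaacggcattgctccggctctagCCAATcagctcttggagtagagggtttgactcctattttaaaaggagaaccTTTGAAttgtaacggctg
Bub1: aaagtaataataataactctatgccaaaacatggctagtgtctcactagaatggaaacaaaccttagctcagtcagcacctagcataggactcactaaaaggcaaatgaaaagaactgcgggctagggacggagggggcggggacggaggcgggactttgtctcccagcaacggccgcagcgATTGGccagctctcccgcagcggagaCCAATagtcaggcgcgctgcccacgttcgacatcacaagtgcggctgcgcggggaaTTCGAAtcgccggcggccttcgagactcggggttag
Ube2c: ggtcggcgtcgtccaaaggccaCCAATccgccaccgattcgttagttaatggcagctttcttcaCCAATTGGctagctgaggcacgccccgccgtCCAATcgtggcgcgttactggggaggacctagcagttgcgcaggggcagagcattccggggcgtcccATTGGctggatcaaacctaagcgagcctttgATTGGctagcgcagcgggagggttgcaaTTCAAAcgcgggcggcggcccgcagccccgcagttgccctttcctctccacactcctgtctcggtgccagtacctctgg

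In control CD45.1 marrow the 42 genes spanned a wide range of levels per length. The highest median TPM were those of the clamp gene Pcna at 346.4, the topoisomerase gene Top2a at 171.7, Cdk1 at 136.4 and the ribonucleotide reductase subunit gene Rrm2 at 129.7. The lowest were those of Cenpf at 5.84, the polymerase epsilon gene Pole at 12.6, the kinetochore motor gene Cenpe at 13.7 and Mcm10 at 14.9. The reference gene table lists pseudogenes of Pcna, Ccnb1, Ccnb2 and Tyms, and how reads shared with them were counted is not given in the sources used here, which leaves those 4 levels uncertain.

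Donor JAK2V617F cells held more RNA of nearly every replication gene and of most mitotic genes than control marrow. Of the 25 replication genes 22 were higher and 0 lower, and of the 17 mitotic genes 13 were higher and 1 lower (edgeR, adjusted p below 0.05), where 22.7% of 13906 genes were higher and 23% lower. The median log2 difference was 0.38 over replication and 0.28 over mitotic genes, against -0.00103 over all genes tested. Summed over the 25 replication genes, the level had a lowest, median and highest value of 3158, 3332 and 3616 CPM in the 7 donor libraries, against 2397, 2658 and 2842 CPM in the 8 control libraries. Over the 17 mitotic genes the sums were 2443, 2575 and 2876 CPM in donor and 1987, 2175 and 2436 CPM in control libraries. The sums are not scaled by length, and the mitotic one weighs most on Mki67 and Top2a, at medians of 783.2 and 509.0 CPM in control libraries. In both sums every donor library lay above every control library. Single genes were apart in this way in 17 of 25 replication and 6 of 17 mitotic genes, against 7.08% of all genes.

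**Figure D2:**
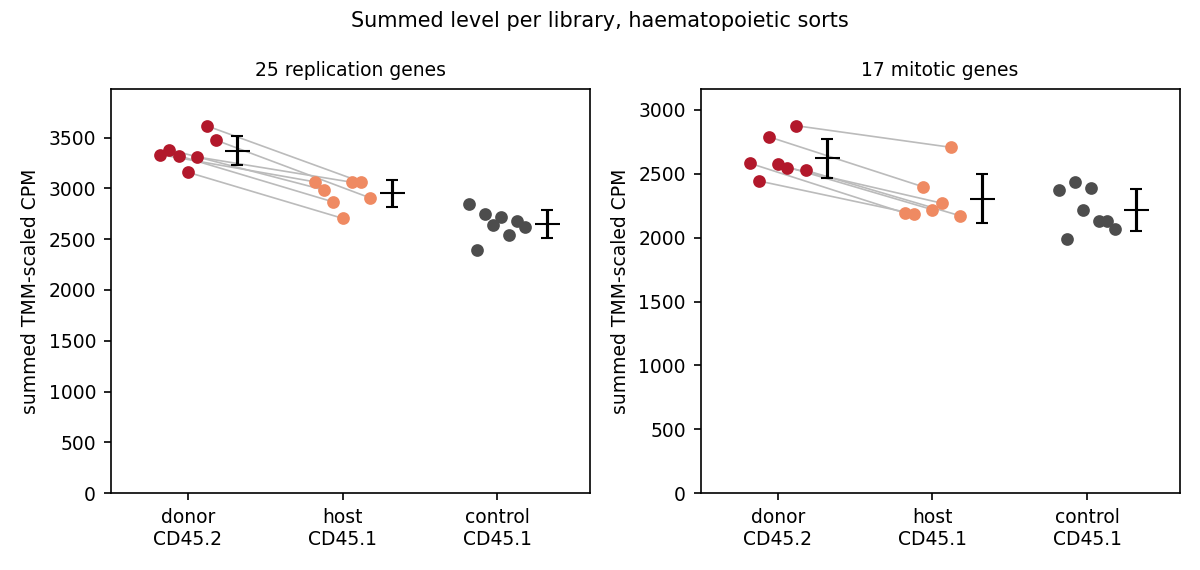
Summed TMM-scaled CPM of the 25 replication genes (left) and the 17 mitotic genes (right) in each donor, host and control library, with mean ± SD and grey lines joining donor and host cells of 1 mouse. All 7 lines run down from donor to host in both panels, and the lowest donor library (3158 CPM for replication, 2443 CPM for mitosis) is above the highest control library (2842 and 2436 CPM).

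Among the replication roles the largest median log2 difference, 0.51, was that of the 4 genes of origin firing, all of them higher. Gins1, a subunit of the GINS part of the active helicase, was at a lowest, median and highest value of 18.1, 21.3 and 22.7 CPM in donor cells, against 10.8, 12.8 and 14.1 CPM in control cells. The groups did not overlap, and the log2 difference was 0.71 ± 0.078 (SE; edgeR adjusted p = 1.23e-06). Mcm10, which helps turn the loaded helicase into an active one, was at 37.8, 44.9 and 45.8 CPM in donor cells, against 25.6, 29.5 and 32.5 CPM in control cells. All donor libraries were again above all controls, with a difference of 0.56 ± 0.065 (edgeR adjusted p = 2.26e-06). Cdc45, the helicase partner recruited at firing, was at 77.7, 82.9 and 91.6 CPM in donor cells, against 54.6, 60.0 and 68.8 CPM in control cells. It was also apart in every library, at 0.46 ± 0.057 (edgeR adjusted p = 4.91e-06).

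All 4 genes of nucleotide supply were higher, with a median log2 difference of 0.44. Rrm1, the large subunit of ribonucleotide reductase, was at 256.6, 269.4 and 304.8 CPM in donor cells, against 181.0, 196.7 and 212.2 CPM in control cells. The groups were apart and the difference was 0.46 ± 0.057 (edgeR adjusted p = 4.6e-06). Tk1, the thymidine kinase of the salvage pathway, was at 54.1, 56.2 and 67.3 CPM in donor cells, against 39.1, 44.0 and 45.5 CPM in control cells. It did not overlap either, at 0.43 ± 0.057 (edgeR adjusted p = 1.03e-05). The other pair are Rrm2, the small subunit of the reductase, and Tyms, which makes thymidylate, at 0.50 and 0.39.

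The 8 genes of the MCM ring and its loading, Mcm2 to Mcm7 with Cdc6 and Cdt1, were all higher by 0.31 to 0.50, and both genes that join Okazaki fragments, the ligase gene Lig1 and the flap nuclease gene Fen1, by 0.42 and 0.44. The polymerase, clamp and clamp loader group was the uneven one, with 4 of 7 higher. Pola1 was at 0.36, Pole at 0.35, Rfc4 of the clamp loader at 0.30 and the primase gene Prim1 at 0.28. Pcna was at 0.03 (edgeR adjusted p = 0.748), the clamp loader gene Rfc3 at 0.06 and the polymerase delta gene Pold1 at -0.15, and none of these passed. With the day on which mice were killed as a block, over the 5 pairs that share a day, Pcna was higher, at 0.14 (edgeR adjusted p = 0.0405). Those pairs leave out control N051, whose Pcna was 423.4 CPM, with the other controls at 302.1 to 333.1 CPM. The parts of the block and of the libraries left out were not tested.

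Among the mitotic roles the largest median was that of the kinases and the passenger complex. All 4 of Aurka, Aurkb, Plk1 and Birc5 were higher, with a median of 0.46. The Polo kinase gene Plk1 was at 0.50. Aurka was at 24.1, 30.2 and 31.8 CPM in donor cells, against 17.8, 20.4 and 24.9 CPM in control cells. Its groups overlapped only at their edges, and the log2 difference was 0.48 ± 0.073 (SE; edgeR adjusted p = 4.67e-05). Aurkb, the Aurora kinase of the chromosomal passenger complex, was at 59.0, 65.1 and 77.2 CPM in donor cells, against 34.9, 51.6 and 57.7 CPM in control cells. The groups were apart, at 0.43 ± 0.087 (edgeR adjusted p = 0.000595).

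Bub1, whose promoter is printed above, was at 50.2, 58.6 and 64.3 CPM in donor cells, against 38.7, 44.2 and 49.1 CPM in control cells. All donor libraries were above all controls, at 0.39 ± 0.065 (edgeR adjusted p = 0.000111). Ube2c was at 75.7, 89.8 and 109.6 CPM in donor cells, against 60.7, 67.4 and 74.5 CPM in control cells. It was apart too, at 0.42 ± 0.070 (edgeR adjusted p = 0.000114). Ccna2, the S and G2 cyclin, was at 113.2, 121.0 and 144.6 CPM in donor cells, against 93.2, 101.8 and 110.0 CPM in control cells. Its groups did not overlap, at 0.30 ± 0.059 (edgeR adjusted p = 0.000553). Its partners in the cyclin group, Cdk1, Ccnb1 and Ccnb2, were higher by 0.28, 0.31 and 0.28, and the checkpoint gene Bub1b, the motor gene Cenpe and Top2a by 0.28, 0.20 and 0.31. Of fits that each left out 1 of the 15 libraries, 3 lost the call of Bub1b, 2 each those of Ccnb1 and Rfc4 and 1 that of Plk1 (edgeR adjusted p = 0.051 to 0.072).

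Cenpf, a large kinetochore and microtubule-binding protein, was the 1 mitotic gene that was lower. It was at 27.2, 35.0 and 38.9 CPM in donor cells, against 35.6, 38.6 and 46.0 CPM in control cells. The ranges overlapped, and the log2 difference was -0.21 ± 0.077 (edgeR adjusted p = 0.0366). This call was lost in 7 of 15 fits that each left out 1 library, without donor N204, N014 or N279 or control N093, N002, N280 or N283 (-0.15 to -0.21, edgeR adjusted p = 0.0502 to 0.0762), and in the fits on library totals, on TPM and without a filter. The proliferation marker Mki67 was at 0.19 (edgeR adjusted p = 0.0681), the spindle motor gene Kif11 at -0.04 and Cdc20, an activator of the anaphase-promoting complex, at 0.15, none of which passed. Cenpf has the longest coding transcript of the 42 genes, 11130 bases, and length moved with the differences across genes. Of genes of at least 8000 bases 13.3% were higher and 31.4% lower in donor cells, against 33.8% higher and 14.2% lower of genes under 2000 bases. Gins1, with the largest rise of the 42 genes, has the shortest coding transcript, 1087 bases. The next shortest were Rfc4 at 1279 and Tk1 at 1440 bases, both higher, and Rfc3 at 1317 and Pcna at 1518 bases, which did not pass. The next longest after Cenpf were Mki67 at 10061 bases, which did not pass, and Cenpe at 7910 and Pole at 7163 bases, both higher. The part of length in these results was not tested.

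The make-up of the sorted cells differed as well. Marker counts here are edgeR calls, where 22.7% of all genes were higher and 23% lower. In bulk libraries fewer cells of a type and less RNA per cell cannot be told apart. B-lineage markers summed to 14.2 to 54.2 CPM in donor and 370.8 to 1095 CPM in control libraries, with 12 of 12 lower, and T and NK markers to 124.1 to 171.5 CPM in donor and 158.0 to 238.4 CPM in control libraries, with 9 of 10 lower and 1 higher. Primary-granule genes, made in promyelocytes, summed to 9233 to 14190 CPM in donor and 4667 to 8761 CPM in control libraries, with 7 of 7 tested higher. Of 14 erythroid markers 9 were higher and 2 lower, with sums of 280.2 to 721.1 CPM in donor and 263.3 to 606.0 CPM in control libraries. Of macrophage markers 4 of 7 tested were higher and 0 lower, with sums of 147.0 to 206.7 CPM in donor and 112.2 to 152.0 CPM in control libraries. Of 10 stem and progenitor markers 3 were higher and 1 lower, with sums of 520.6 to 740.2 CPM in donor and 487.8 to 632.1 CPM in control libraries. Those sums overlapped, and the counts were near or below the shares of all genes. None of 10 mature neutrophil genes passed by edgeR, below the shares of all genes. An unadjusted p below 0.05 was reached by 1 of them, and DESeq2 called 1. The shares of all genes under these other rules are not given here, so those counts cannot be judged. The part of these markers in the donor results was not tested. Donor N269, which had the highest replication and mitotic sums, had the lowest erythroid sum of its group, 280.2 CPM. Its primary-granule sum was the group median, 12790 CPM. These are values of 1 library, and a relation over the 7 donor libraries was not tested.

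**Figure D3:**
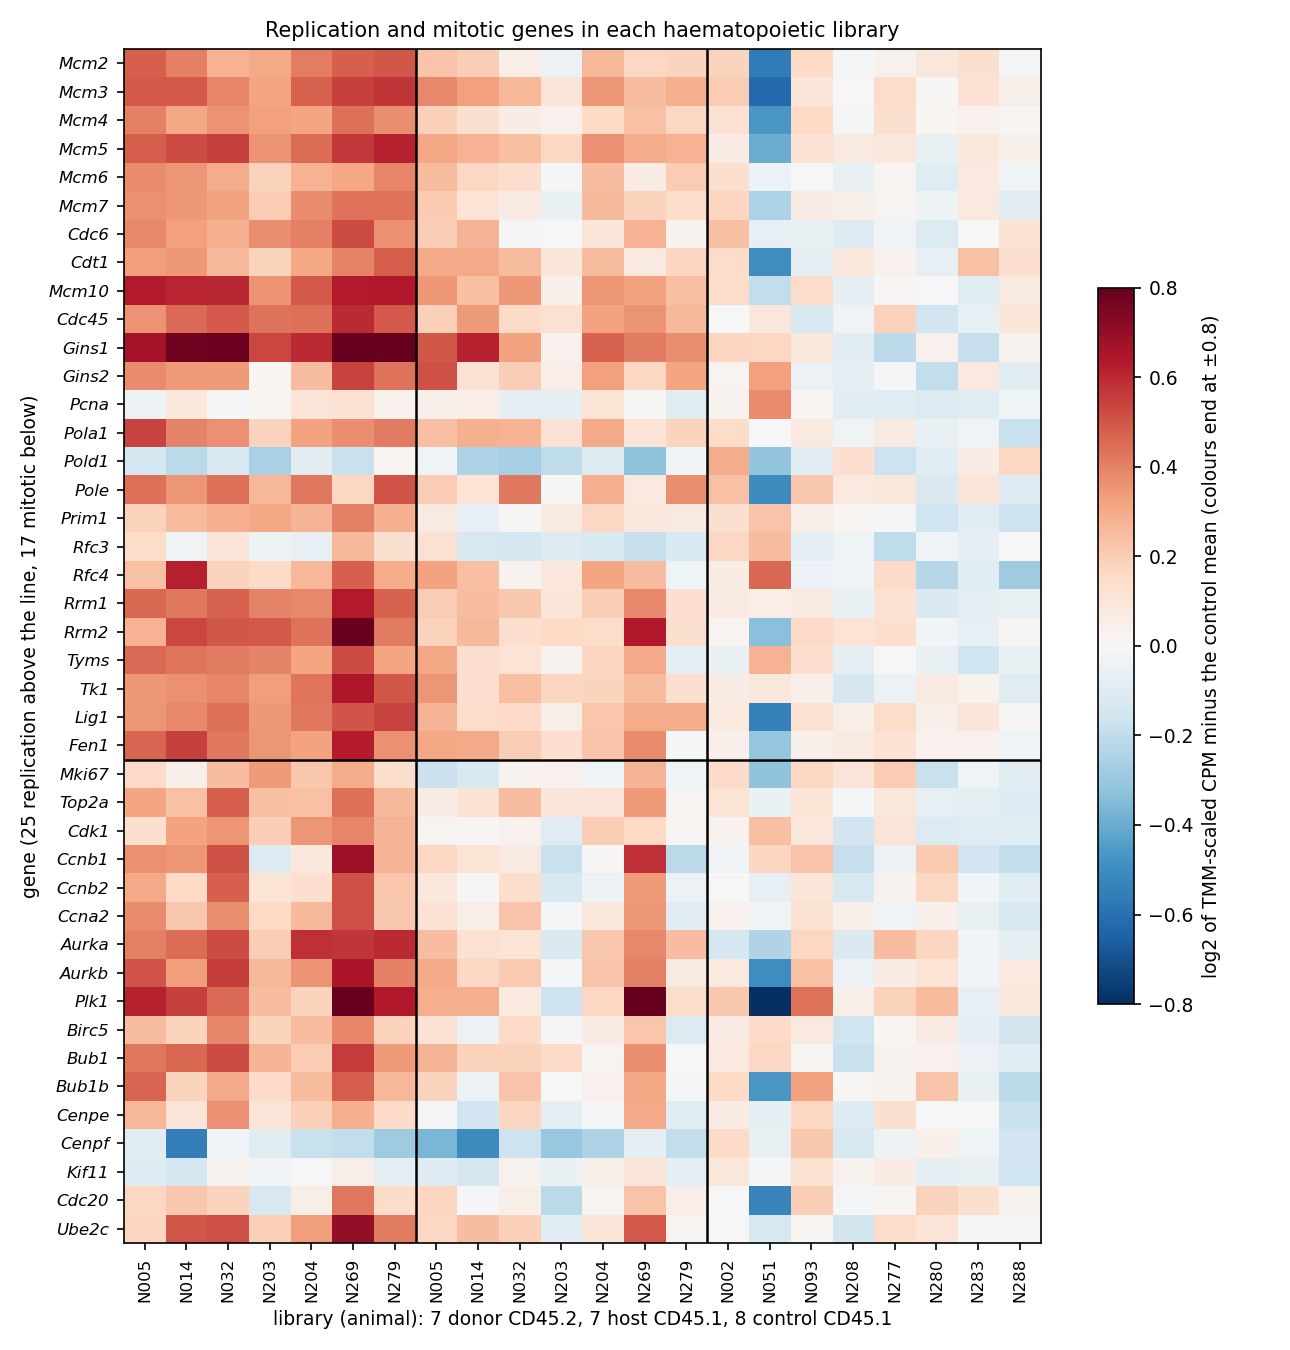
Log2 level of each of the 42 genes in each of the 22 CD45-sorted libraries, minus the mean of the 8 control libraries for that gene; red is above and blue below the control mean. The donor columns are red in most rows, the host columns are paler, and control N051 departs from the other controls in both directions, lowest of the controls in 18 genes and highest in 10.

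Host cells are wild type but lived beside the clone, and they held more RNA of 9 replication genes and less of 1 mitotic gene than control marrow. Of 25 replication genes 9 were higher and 0 lower, where 8.61% of 14073 genes were higher and 7.82% lower (edgeR, adjusted p below 0.05). The 9 were Mcm3, Mcm5, Mcm10, Cdc45, Gins1, Pola1, Rrm1, Tk1 and Fen1. Of 17 mitotic genes 0 were higher and 1 was lower, while 6 had an unadjusted p below 0.05, against 31.8% of all genes, and DESeq2, which called 20% of all genes in either direction, also called 1. The median log2 difference was 0.21 over replication and 0.09 over mitotic genes, against 0.01 over all genes. Replication sums were 2705, 2984 and 3064 CPM in host libraries, against 2397, 2658 and 2842 CPM in control libraries, and mitotic sums 2171, 2219 and 2707 CPM in host and 1987, 2175 and 2436 CPM in control libraries. Both sums overlapped between the groups. This comparison shares its control libraries with the donor comparison, so the 2 are not independent.

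Gins1 was at a lowest, median and highest value of 12.8, 16.7 and 19.1 CPM in host cells, against 10.8, 12.8 and 14.1 CPM in control cells. The lowest host library, N203, lay at the control median, and the other host libraries were above all controls. The log2 difference was 0.40 ± 0.089 (SE, edgeR adjusted p = 0.00646). Cdc45 was at 66.1, 72.6 and 77.8 CPM in host cells, against 54.6, 60.0 and 68.8 CPM in control cells. A slight overlap remained, at 0.26 ± 0.060 (edgeR adjusted p = 0.00783). Mcm10 was at 30.3, 36.8 and 37.5 CPM in host cells, against 25.6, 29.5 and 32.5 CPM in control cells. Host N203 was the lowest of its group and the 1 library that fell within the control range, and the difference was 0.28 ± 0.066 (edgeR adjusted p = 0.00924).

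Mcm5 was at 222.3, 241.1 and 256.4 CPM in host cells, against a lowest of 150.8, a middle pair of 207.6 and 208.3 and a highest of 215.1 CPM in control cells. It and Tk1 were the 2 replication genes whose groups did not overlap, where 1.67% of all genes were apart and higher. Its log2 difference was 0.28 ± 0.068 (edgeR adjusted p = 0.0103). Pola1 was at 66.3, 72.7 and 75.7 CPM in host cells, against 54.4, 60.9 and 68.0 CPM in control cells. Its ranges overlapped, at 0.22 ± 0.053 (edgeR adjusted p = 0.0109). By role, 3 of 4 origin-firing genes were higher, 2 of 4 in nucleotide supply, 2 of 8 in the MCM ring and its loading, 1 of 7 polymerase and clamp genes and 1 of 2 Okazaki genes. With the day as a block Fen1 was at 0.16 (edgeR adjusted p = 0.134) and no longer passed. Of 15 fits that each left out 1 library, 11 lost the call of Mcm3 (edgeR adjusted p = 0.0549 to 0.0915) and 6 that of Fen1 (edgeR adjusted p = 0.0535 to 0.0757).

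On the mitotic side Cenpf was at 27.8, 33.4 and 37.6 CPM in host cells, against 35.6, 38.6 and 46.0 CPM in control cells. The ranges overlapped, and the log2 difference was -0.26 ± 0.074 (SE; edgeR adjusted p = 0.0255). Without host N014 or N005 it was at -0.22 and -0.24 (edgeR adjusted p = 0.062 and 0.0561) and did not pass. With the day of death as a block it was -0.25 (edgeR adjusted p = 0.0783) and did not pass. Bub1 was at 43.6, 49.6 and 56.5 CPM in host cells, against 38.7, 44.2 and 49.1 CPM in control cells, and Ube2c was at 63.1, 75.2 and 94.4 CPM in host cells, against 60.7, 67.4 and 74.5 CPM in control cells. Both overlapped and neither passed, at 0.17 ± 0.066 (edgeR adjusted p = 0.0794) and 0.18 ± 0.074 (edgeR adjusted p = 0.0969). Aurka was at 19.4, 24.4 and 27.5 CPM in host cells, against 17.8, 20.4 and 24.9 CPM in control cells, and Top2a, the topoisomerase that untangles chromosomes, at 530.4, 561.4 and 661.0 CPM in host cells, against 486.9, 509.0 and 564.5 CPM in control cells. They overlapped too, at 0.19 ± 0.078 (edgeR adjusted p = 0.108) and 0.15 ± 0.065 (edgeR adjusted p = 0.127). Ube2c was higher without host N279, at 0.22 (edgeR adjusted p = 0.0495), and Aurka without control N093, at 0.23 (edgeR adjusted p = 0.0435).

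Host N269 carried the highest level in 16 of 17 mitotic genes and a mitotic sum of 2707 CPM, with the next host library at 2398 CPM. In host cells B-lineage markers were lower in 12 of 12 (sums of 145.1 to 559.0 CPM in host and 370.8 to 1095 CPM in control libraries), macrophage markers higher in 7 of 8 tested (164.4 to 246.6 CPM in host and 112.2 to 152.0 CPM in control libraries), and primary-granule genes higher in 2 of 7 tested, Prtn3 and Ctsg (7286 to 11940 CPM in host and 4667 to 8761 CPM in control libraries). Of 14 erythroid markers 1 was lower and 0 higher, and of 10 stem and progenitor markers 2 were higher and 0 lower (471.0 to 693.7 CPM in host and 487.8 to 632.1 CPM in control libraries). Beside these marker counts, 8.61% of all genes were higher and 7.82% lower in host cells. The part of these markers in the host results was not tested. Control N051 had the lowest replication and mitotic sums, 2397 and 1987 CPM, and the lowest primary-granule sum of the controls. Without it Pold1 was lower in host cells, at -0.22, and in donor cells, at -0.20.

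Donor and host cells of the same mouse could be compared directly, since both were sorted from the marrow of 1 animal. In the fit without pairing, which also gave the single-gene values below unless stated, 15 of the 25 replication genes were higher in donor cells and 0 lower. Of the 17 mitotic genes 5 were higher and 0 lower, where 4.17% of 13662 genes were higher and 9.94% lower (edgeR, adjusted p below 0.05). With the animal as a block, 20 replication and 14 mitotic genes were higher, where 15.2% of all genes were higher and 18.5% lower. The summed replication level of donor over host cells had a ratio of 1.08 to 1.2 over the 7 mice and the mitotic one of 1.06 to 1.18, above 1 in 7 of 7 mice. Donor cells were higher in all 7 mice in 20 of 25 replication and 13 of 17 mitotic genes, against 12.1% of all genes. The median log2 difference was 0.21 over replication and 0.20 over mitotic genes.

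Prim1 was at a lowest, median and highest value of 55.4, 59.6 and 64.6 CPM in donor cells, against 46.7, 51.3 and 54.8 CPM in host cells. Even without pairing the groups were apart, with a log2 difference of 0.22 ± 0.044 (SE; edgeR adjusted p = 0.00259). Mcm4, a subunit of the helicase ring, was at 164.6, 170.3 and 180.5 CPM in donor cells, against 135.9, 148.7 and 156.3 CPM in host cells, also apart, at 0.21 ± 0.044 (edgeR adjusted p = 0.00306). Mcm2, of the same ring, was at 153.9, 168.1 and 179.3 CPM in donor cells, against 122.7, 143.5 and 152.3 CPM in host cells. Its lowest donor library lay just above its highest host library, at 0.25 ± 0.053 (edgeR adjusted p = 0.00423).

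Mcm10 was at 37.8, 44.9 and 45.8 CPM in donor cells, against 30.3, 36.8 and 37.5 CPM in host cells, which did not overlap, at 0.29 ± 0.062 (edgeR adjusted p = 0.00403). Lig1 was at 152.9, 161.0 and 174.8 CPM in donor cells, against 124.4, 140.2 and 148.1 CPM in host cells, at 0.21 ± 0.046 (edgeR adjusted p = 0.00438). With Cdc6 and Tyms these 5 made 7 replication genes apart between donor and host cells, against 0.878% of all genes and 0 of the 17 mitotic genes.

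The 5 mitotic genes higher in donor cells were Cdk1, Aurka, Aurkb, Birc5 and Bub1. Cdk1, the kinase that starts mitosis, was at 86.6, 99.2 and 103.9 CPM in donor cells, against 74.1, 80.3 and 91.1 CPM in host cells. The ranges overlapped, at 0.23 ± 0.050 (edgeR adjusted p = 0.00423). Aurka was at 24.1, 30.2 and 31.8 CPM in donor cells, against 19.4, 24.4 and 27.5 CPM in host cells, with overlap, at 0.29 ± 0.066 (edgeR adjusted p = 0.00598). Aurkb was at 59.0, 65.1 and 77.2 CPM in donor cells, against 48.9, 56.8 and 65.0 CPM in host cells, and overlapped, at 0.23 ± 0.071 (edgeR adjusted p = 0.0379).

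Birc5, or survivin, a member of the passenger complex, was at 61.0, 64.1 and 70.6 CPM in donor cells, against 50.0, 56.2 and 62.8 CPM in host cells, at 0.20 ± 0.061 (edgeR adjusted p = 0.0419). Bub1 was at 50.2, 58.6 and 64.3 CPM in donor cells, against 43.6, 49.6 and 56.5 CPM in host cells, at 0.22 ± 0.070 (edgeR adjusted p = 0.0488). Both overlapped. In the fit without pairing the count of 5 moved with single libraries. It was 13 without host N269 and 2 without host N279, N014, N203 or N204 or without donor N032, N005 or N269. It was 3 without host N032, 4 without host N005 or donor N204, N014 or N279, and 5 without donor N203. Each such fit dropped 1 library of a pair and kept the other, and the fit with the animal as a block was not repeated this way. With that block 14 of 17 mitotic genes were higher, with edgeR adjusted p = 0.000279 for Aurkb, 0.00062 for Birc5 and 0.001 for Bub1. Cenpf was at 0.06 between donor and host cells (edgeR adjusted p = 0.705).

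Beside these differences, B-lineage markers were lower in donor than in host cells in 12 of 12 and T and NK markers in 9 of 10, erythroid markers were higher in 8 of 14 and primary-granule genes in 2 of 7 tested, and macrophage markers were lower in 6 of 8 tested. Of 9 stem and progenitor markers tested 1 was higher and 1 lower. Beside these marker counts, 4.17% of all genes were higher and 9.94% lower in donor cells. Within mice the primary-granule sum of donor over host cells had a ratio of 1.12 to 1.42, and the erythroid sum 0.966 to 1.83. The part of these markers in the result was not tested. Animal N203 had the lowest level of its group in 20 of the 42 genes in both donor and host cells. Slopes were fitted on log2 of the labelled final chimerism of peripheral blood, 0.63 to 5.99 with no unit stated, and passed for 0 of 42 genes in donor, host and stroma libraries (edgeR and DESeq2, with 0 at an unadjusted p below 0.05). Over all genes edgeR called 0% in each, 1.99%, 4.27% and 3.31% had an unadjusted p below 0.05 in donor, host and stroma libraries, and DESeq2 called 0%, 0.0159% and 0.0487%. The sex-by-transplant term in host cells passed for 0 of 42 (edgeR and DESeq2, with 1 replication gene at an unadjusted p below 0.05, against 3.02% of all genes, of which DESeq2 called 0.0213%).

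**Figure D4:**
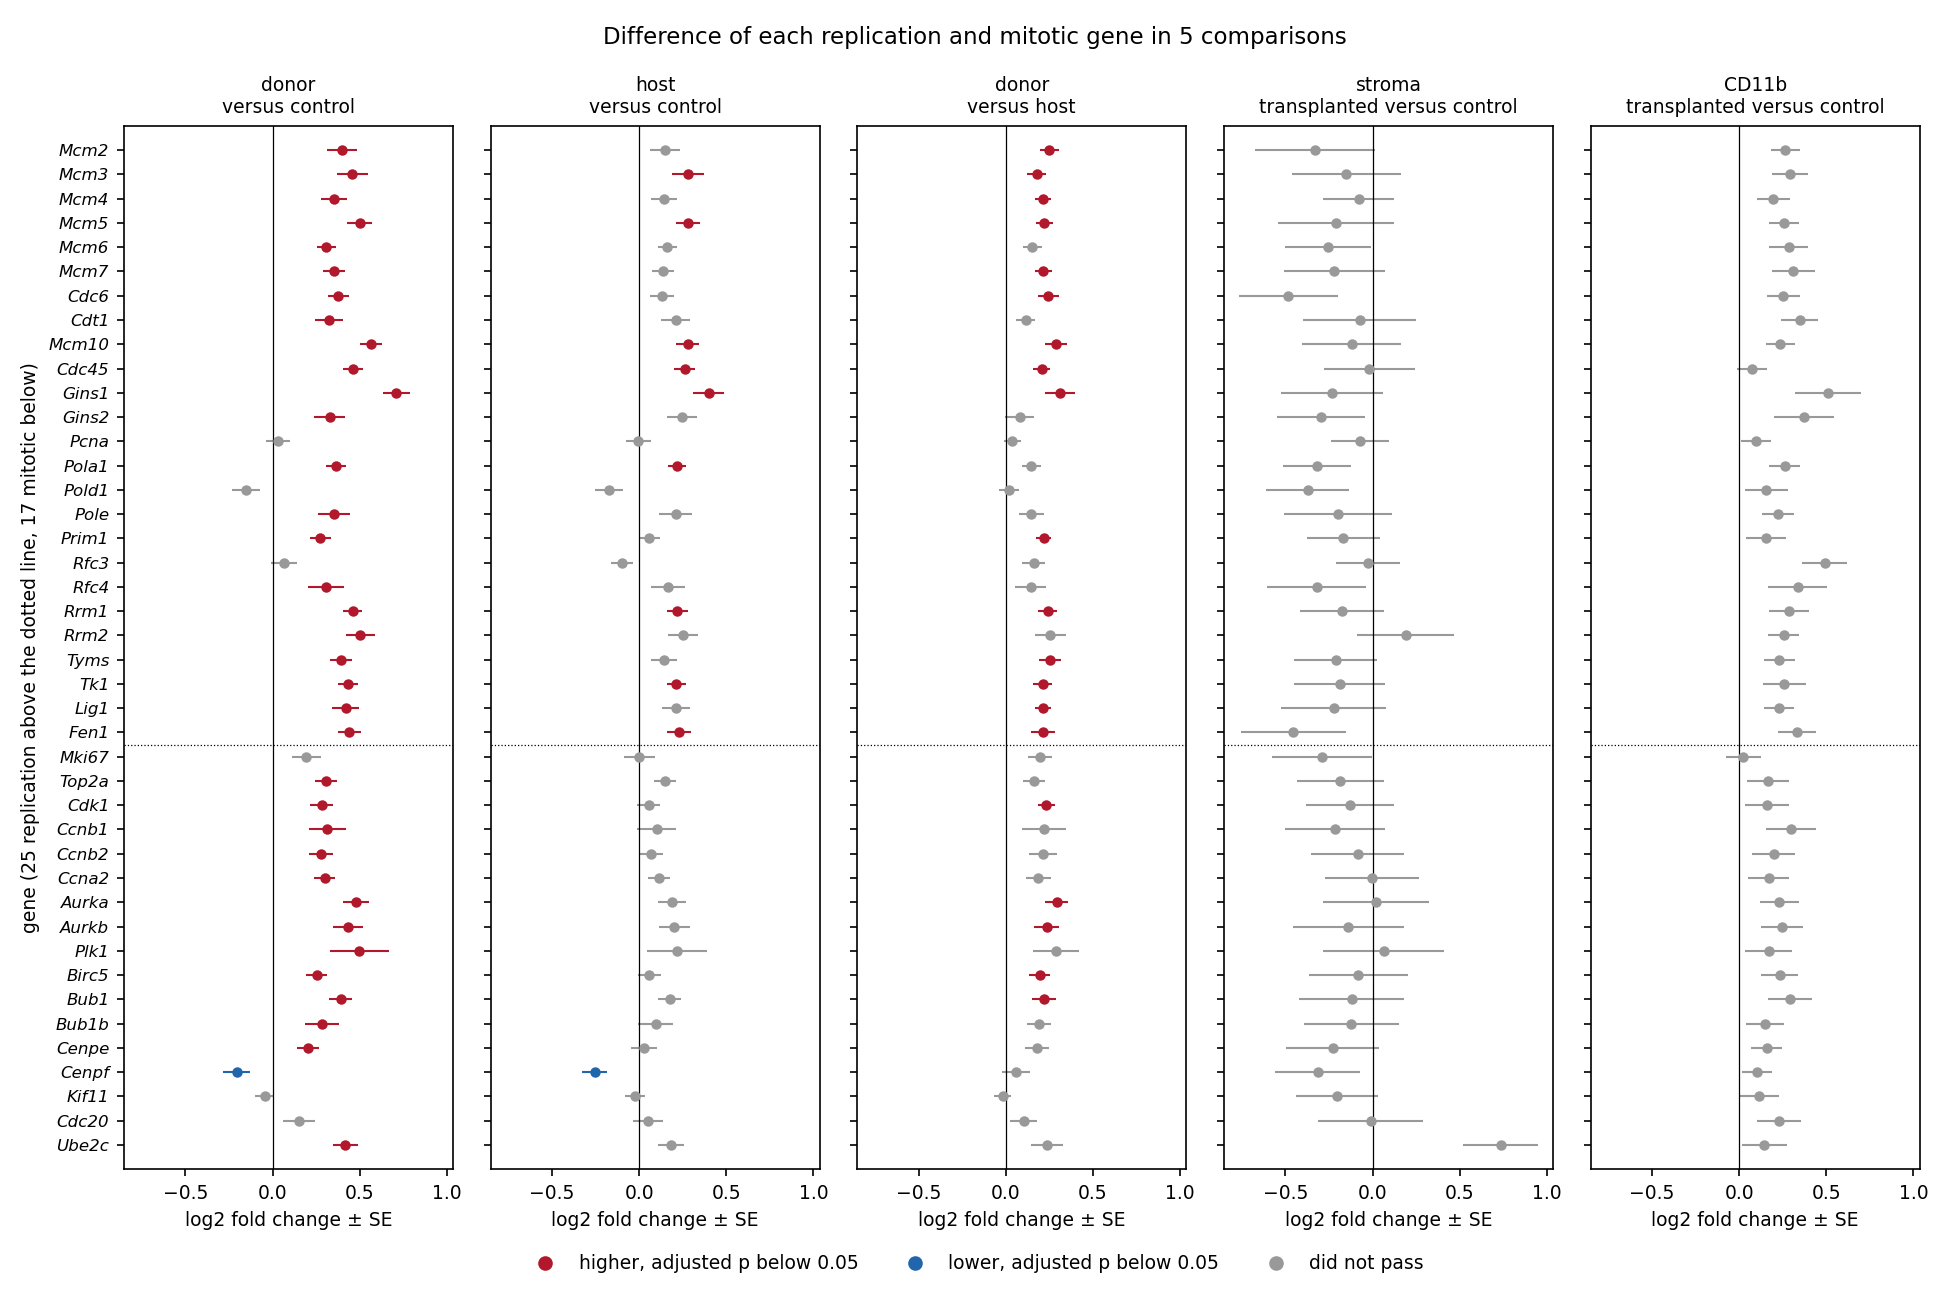
Log2 difference ± SE of each of the 42 genes in the 5 comparisons, on 1 shared axis, coloured by the edgeR call. In donor against control cells 22 of 25 replication genes are red, in host against control cells 9, and in stroma and CD11b+ cells none of the 42.

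Other genes of the same processes, from lists of 41 further replication genes, 44 further mitotic genes and 23 tested regulators of the cell cycle, were counted beside the 42. In donor against control cells 31 further replication genes were higher and 1 lower, 31 further mitotic genes were higher and 3 lower, and 10 regulators were higher and 2 lower, where 22.7% of all genes were higher and 23% lower. In host against control cells these counts were 5 higher and 0 lower, 1 higher and 1 lower, and 4 higher and 0 lower, where 8.61% of all genes were higher and 7.82% lower. In donor against host cells they were 10 higher and 1 lower, 11 higher and 1 lower, and 4 higher and 1 lower, where 4.17% of all genes were higher and 9.94% lower.

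Chaf1b, of the complex that puts histones on new DNA, was at 0.54 ± 0.061 in donor against control cells (SE; edgeR adjusted p = 1.53e-06) and at 0.33 ± 0.062 in host against control cells (edgeR adjusted p = 0.00238). The G1 kinase gene Cdk4 was at 0.55 ± 0.067 in donor against control cells (edgeR adjusted p = 3.93e-06) and at 0.34 ± 0.065 in host against control cells (edgeR adjusted p = 0.00238). Cdk6, a related G1 kinase gene, was at 0.37 in host against control cells, and Spc24, of the outer kinetochore, at 0.25. Against the direction of their lists, the cyclin gene Ccnd1 was at -0.99 ± 0.23 in donor against control cells (edgeR adjusted p = 0.00182) and at -0.65 ± 0.18 in donor against host cells (edgeR adjusted p = 0.0204). Pttg1, or securin, was at -0.57 ± 0.092 in donor against control cells (edgeR adjusted p = 8.6e-05), the small polymerase delta subunit gene Pold4 at -0.49 ± 0.095 (edgeR adjusted p = 0.00044) and the centromere histone gene Cenpa at -0.33 ± 0.069 (edgeR adjusted p = 0.000819). Cenpa was also lower in host cells, at -0.22 ± 0.060 (edgeR adjusted p = 0.019).

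In stroma the 42 genes varied widely between libraries of 1 group. None passed in either direction (edgeR, 0 of 25 and 0 of 17), where 0.466% of 26191 genes were higher and 1.03% lower. At an unadjusted p below 0.05 there were 0 replication genes and 1 mitotic gene, against 7.96% of all genes, and DESeq2 called 0 and 1, against 2.86% of all genes. Of the 25 replication genes 24 lay below 0 and of the 17 mitotic genes 14, against 42.9% of all genes, with medians of -0.21 and -0.12 against 0.04 over all genes. Replication sums were 948.9, 1624 and 4056 CPM in transplanted stroma, against 1445, 2212 and 3571 CPM in control stroma, and mitotic sums 408.7, 995.3 and 2240 CPM in transplanted and 644.8, 1151 and 1952 CPM in control stroma. The transplanted range enclosed the control range in both sums.

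The genes moved together from library to library. In transplanted stroma all 42 were lowest in N269 and 38 were highest in N032, and in control stroma all 42 were highest in N093 and 40 lowest in N280. The erythroid marker sum was 12540 CPM in N032 and 5665 CPM in N269, and 22290 CPM in N203, which had the next highest replication sum, 3592 CPM, and in controls 7691 CPM in N093 and 2567 CPM in N280, the highest and lowest of the controls. Erythroid sums were 4064 to 22290 CPM in transplanted and 2567 to 7691 CPM in control stroma. In transplanted stroma 5 of 14 erythroid and 3 of 9 tested macrophage markers were higher, where 0.466% of all genes were higher. The lowest erythroid sum of transplanted stroma was not that of N269, and N203, with the highest, was highest in 4 of the 42 genes. These are values of single libraries, and a relation over the stroma libraries was not tested. N032 also had the lowest stroma marker sum, 2380 CPM. The part of these markers in the stroma levels was not tested.

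Ube2c was the member with the smallest p, at a lowest, median and highest value of 41.7, 71.6 and 159.9 CPM in transplanted stroma, against 30.0, 49.4 and 89.9 CPM in control stroma. The groups overlapped, and the log2 difference was 0.74 ± 0.21 (SE; edgeR adjusted p = 0.13; DESeq2 adjusted p = 0.0459). Cdc6 was at 20.8, 49.9 and 112.9 CPM in transplanted stroma, against 45.0, 73.3 and 143.3 CPM in control stroma, with overlap and a difference of -0.48 ± 0.28 (edgeR adjusted p = 0.806). Pola1 was at 46.8, 81.7 and 127.2 CPM in transplanted stroma, against 56.9, 92.5 and 135.7 CPM in control stroma, at -0.32 ± 0.20 (edgeR adjusted p = 0.829). Cenpf was at 12.4, 37.9 and 68.2 CPM in transplanted stroma, against 27.2, 47.3 and 70.1 CPM in control stroma, at -0.31 ± 0.24 (edgeR adjusted p = 0.922). Both overlapped widely. Of the further lists of 41, 44 and 23 genes, 1 gene passed, where 0.466% of all genes were higher and 1.03% lower. A single call is near that share. The gene was Rbl1, the p107 member of the retinoblastoma family, and its call was not followed through the alternative fits. Rbl1 was at 14.2, 21.5 and 34.2 CPM in transplanted stroma, against 28.4, 37.9 and 53.8 CPM in control stroma. Its log2 difference was -0.82 ± 0.20 (edgeR adjusted p = 0.0497).

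**Figure D5:**
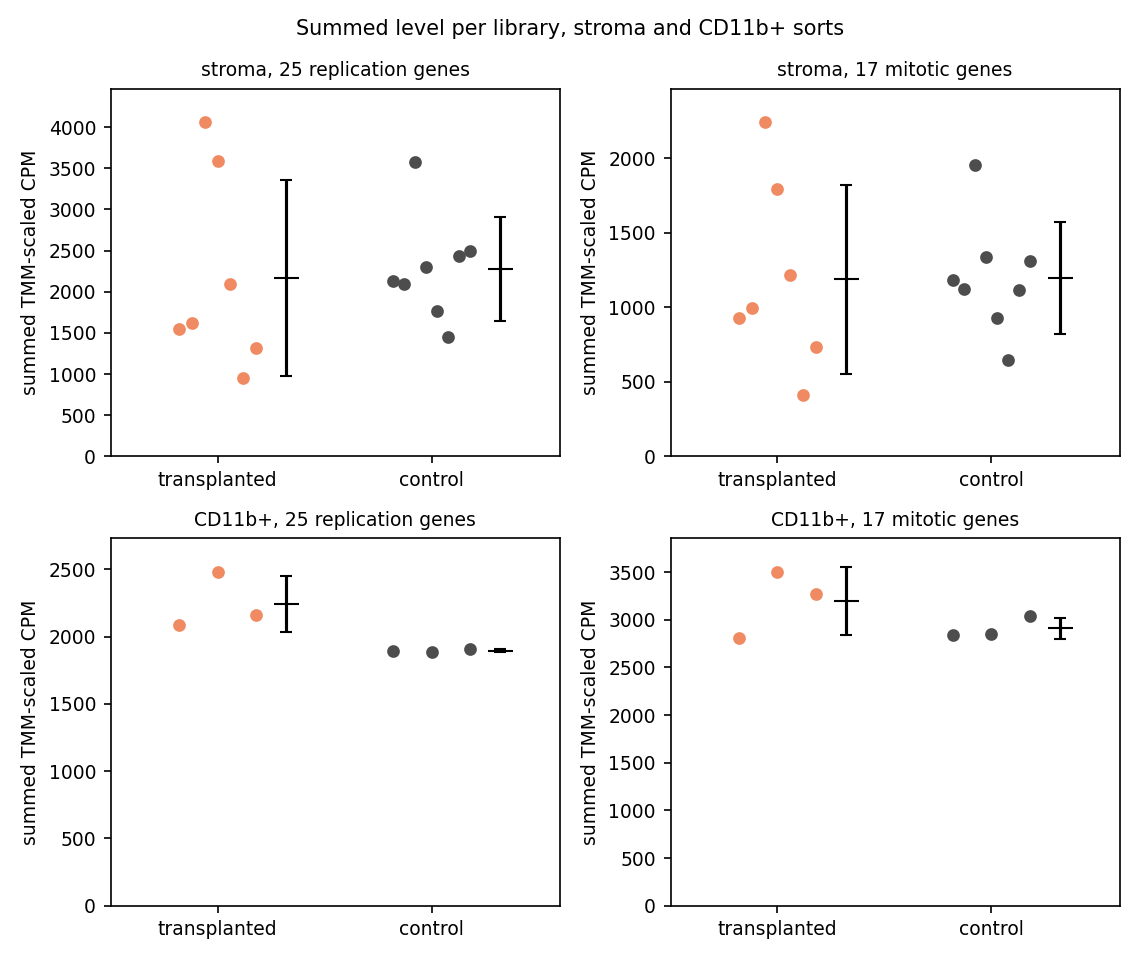
Summed TMM-scaled CPM of the replication (left) and mitotic genes (right) in each library of stroma (top) and CD11b+ cells (bottom), transplanted beside control mice, with mean ± SD. Stroma libraries spread from 948.9 to 4056 CPM for replication with full overlap, while the 3 transplanted CD11b+ libraries (2088 to 2482 CPM) are above the 3 controls (1887 to 1905 CPM).

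In CD11b+ host cells after 52 weeks all 42 genes lay above 0 in transplanted mice, but none passed. edgeR called 0 of the 42 and 0% of 15257 genes in either direction, and DESeq2 called 0 of the 42 and 1.91% of genes. At an unadjusted p below 0.05 there were 17 replication genes and 1 mitotic gene, against 16.4% of all genes. The median log2 difference was 0.26 over replication and 0.17 over mitotic genes, against 0.02 over all genes, of which 52% lay above 0. The groups were apart in 20 of 25 replication genes and in 1 of 17 mitotic genes, against 12.2% of all genes. Replication sums were 2159, 2088 and 2482 CPM in the transplanted mice N187, N116 and N129, against 1905, 1892 and 1887 CPM in the control mice N168, N112 and N128. Mitotic sums were 3273, 2805 and 3504 CPM in the same transplanted mice, against 3039, 2842 and 2855 CPM in the controls. The replication sums did not overlap, and the mitotic sum of N116 was below all 3 controls. That sum weighs most on Mki67 and Top2a, which in N116 were at 796.7 and 551.6 CPM. In the controls Mki67 was at 836.9 to 867.1 CPM and Top2a at 558.8 to 612.3 CPM.

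Rfc3, a subunit of the clamp loader, was at 19.9, 17.6 and 22.3 CPM in N187, N116 and N129, against 14.9, 14.3 and 13.2 CPM in N168, N112 and N128. All 3 transplanted mice were above all 3 controls, and the log2 difference was 0.49 ± 0.13 (SE; edgeR adjusted p = 0.27). Cdt1, which loads the MCM ring with Cdc6, was at 39.1, 40.0 and 47.5 CPM in the transplanted mice, against 32.2, 35.5 and 31.9 CPM in the controls. It was apart as well, at 0.35 ± 0.11 (edgeR adjusted p = 0.27). Bub1 was at 77.7, 61.0 and 87.3 CPM in the transplanted mice, against 62.8, 62.2 and 59.8 CPM in the controls. N116 lay within the control range, and the difference was 0.29 ± 0.13 (edgeR adjusted p = 0.304). Birc5 was at 95.5, 88.0 and 111.8 CPM in the transplanted mice, against 87.0, 78.6 and 85.5 CPM in the controls. This mitotic gene alone of 17 was apart, at 0.23 ± 0.11 (edgeR adjusted p = 0.312).

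N129 was the highest of the transplanted mice in 37 of 42 genes and N116 the lowest in 33. Mature neutrophil genes summed to 125700, 128500 and 76890 CPM in N187, N116 and N129, against 152300, 130800 and 138000 CPM in N168, N112 and N128. Primary-granule genes summed to 6227 to 7320 CPM in transplanted and 4883 to 5483 CPM in control mice, and macrophage markers to 201.3 to 362.7 CPM in transplanted and 170.5 to 176.1 CPM in control mice. The part of these markers in the CD11b+ levels was not tested.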

How the data were processed

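Per the labels' protocols, libraries of CD45-sorted cells were directional and started from poly-A RNA, and stroma cells went through a kit for low input. The submitters' processing notes list STAR 2.7.3a, featureCounts (Subread 1.6.2), the build GRCm39 and, for CD11b+ cells, RSEM 1.3.3. The annotation, the strand setting and the handling of multiply mapped reads are not given in the sources used here. The authors deposited raw whole-number counts per gene, and deposited TPM, which come to a total of 1000000 in each library.

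The 42 genes and the further gene and marker lists were chosen with earlier results of these data known. Symbols were matched for 51948 of 56941 identifiers. Counts were tested with edgeR 4.0.16 in R 4.3.3: filterByExpr, TMM scaling and the quasi-likelihood F-test, 2 groups a fit. Sex was a covariate wherever both sexes were present, and p-values were adjusted over all genes tested by Benjamini-Hochberg, passing at 0.05. Standard errors are the log2 difference over the square root of F. The fits were tested on simulated data with known shifts, and found large shifts more often than small ones. Full values are given for at most 5 replication and 5 mitotic genes with the smallest p in a comparison, and up to 3 genes with the smallest p per direction were eligible for naming from each further list.

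Alternatives were edgeR with RLE factors or library totals, DESeq2 1.42.0, no filter, limma 3.58.1 (limma-trend) on log2(TPM + 1), each sex alone, leaving out each library, and blocks. The labels give donor and host cells of 1 animal, whose deviations from the group means correlated across genes at 0.199 to 0.649 in 7 pairs, and the day on which mice were killed, whose 5 pairs correlated at 0.242 to 0.324 for host, 0.168 to 0.319 for donor and 0.16 to 0.639 for stroma, and at -0.0565 to 0.0664 for CD11b+ cells. Sex was not removed from these deviations, and both mice of each pair by day were of the same sex. Day and sex therefore cannot be told apart in those correlations. In CD11b+ cells the pairs reuse mice, with N116 and N129 each set beside both N112 and N128. Each of the 42 genes was counted in every group.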

Additional observations from a re-analysis of the deposited data

Results flagged for a closer look

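Of 66 groups of 7 or 8 libraries examined for the 2 summed levels and the genes given in full, 7 held 1 library set apart from the others by a gap that is large for the range of its group, where chance gives about 1 in 20. Host N269 had a mitotic sum of 2707 CPM, with the next host library at 2398 CPM. Host N203 had the lowest Mcm10, 30.27 CPM, with the next at 34.66 CPM. Donor N269 had the highest Rrm1, 304.8 CPM, with the next at 272.1 CPM. Control N051 was lowest in Aurkb, 34.88 CPM with the next at 47.56 CPM, and in Mcm5, 150.8 CPM with the next at 190.2 CPM. Control stroma N093 was highest in Cdc6, 143.3 CPM with the next at 83.07 CPM, and in Ube2c, 89.94 CPM with the next at 53.3 CPM.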

How the results depend on the processing

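Counts of passing genes moved by over 1.5 times as follows. In host against control cells the 9 higher replication genes were 4 on TPM, 0 in males and 0 in females alone, and 3 in the same paired mice with no replicate block, a setting chosen after seeing the data; 1 mitotic gene was higher on library totals, and the 1 lower mitotic gene was 0 on TPM, in males, in females, with the day as replicate block and in the same paired mice with no block. In donor against control cells males alone gave 12 replication and 4 mitotic genes higher, and the 1 lower mitotic gene was 0 on library totals, without a filter, on TPM and in either sex alone. In donor against host cells the 15 replication genes were 7 on TPM, 4 in males and 0 in females, and the 5 mitotic genes were 3 on library totals, 3 without a filter, 1 on TPM, 1 in males, 0 in females and 14 with the animal as replicate block. In stroma DESeq2 called 1 mitotic gene higher. Cenpf in donor against host cells was at -0.05 in females alone (edgeR adjusted p = 0.877), the 1 change of sign among the 40 single-gene values given in full; genes outside these were not followed through the alternatives in this way. Leaving out 1 library gave 7 to 11 higher replication genes, 0 to 1 lower, 0 to 1 higher mitotic genes and 0 to 1 lower in host against control cells. In donor against control cells it gave 21 to 22 higher replication genes, 0 to 1 lower, 10 to 14 higher mitotic genes and 0 to 1 lower, and in donor against host cells 13 to 17 higher replication and 2 to 13 higher mitotic genes. The block on the day gave 8 higher replication genes in host cells and 23 replication and 13 mitotic genes in donor cells, against control cells. Fits on 1 sex or on paired mice hold fewer libraries by construction; for the other settings the cause was not tested. Of those 40 values under the alternatives 794 kept their direction and side of the threshold, 91 lost their call, 4 gained one and 1 changed sign.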
